A study of Mus musculus with 4 samples.

Results

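Proteasome genes were followed in mouse liver after a diet with trans-10, cis-12 conjugated linoleic acid (CLA), a fatty acid isomer. The set holds every array feature outside the controls whose deposited description contains proteasome or proteosome, which was 40 of 20868 features. A feature is a distinct probe of the oligonucleotide array. By description or standard subunit name, 8 features belong to alpha subunits of the core, 12 to beta subunits of the core, 4 to ATPases of the cap, 13 to other cap proteins, 2 to the activator and 1 to an inhibitor. A RefSeq accession named 29 of them and a symbol in the description 3 more, and 8 have no symbol and are called here by their description and GenBank identifier. Some proteasome genes lie outside the set because their description lacks the word, among them Psmc1, Psmc5, Psmc6 and Psme3.

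The mice were males of a polygenic obese line, fed for 14 days a diet with 1% trans-10, cis-12 CLA or a control diet with 1% linoleic acid. Their line and sex were the same in both groups, and every liver RNA sample was a pool of 4 or 5 mice, so the spread between single mice cannot be seen. Each of 4 two-colour arrays set a CLA pool against a control pool, and CLA carried Cy5, the red dye, on arrays 1 and 2, and Cy3, the green one, on arrays 3 and 4. Whether arrays share a pool is not labelled, so the p-values reflect array-to-array spread that may be no more than technical. On each array, 80.2% to 95.7% of the features were well above background in a given diet's channel. The direction of every ratio rests on the dyes that the labels give. Of the liver check, 8 of 16 listed hepatocyte markers were tested, and all 8, with Ttr, Apoa1 and Ahsg among them, were well above background on all arrays in both diets.

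The proteasome is the large protease that degrades proteins tagged with ubiquitin in the cytosol and nucleus. Its barrel-shaped core is built of alpha rings, which gate the entrance, around beta rings, which hold the cutting sites. A cap on the core binds ubiquitin chains, removes them and unfolds the substrate with a ring of ATPases. Interferon gamma induces the beta subunits Psmb8, Psmb9 and Psmb10, which replace the standard cutting subunits Psmb5, Psmb6 and Psmb7 and form the immunoproteasome. In mammalian cells the transcription factor Nfe2l1 raises subunit genes together when proteasome activity falls short, through antioxidant response elements in their promoters.

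The core of that element, TGACNNNGC on either strand, was sought in the RefSeq promoter windows of the GRCm38.p6 assembly, which run from 250 bases before to 50 after a gene's start. Its letters TGAC are shared with sites of AP-1 proteins. Of 32 member symbols, 25 matched a gene with a window. The core lay in a window of 4 of these 25 genes (16.0%), namely Psmb5, Psmb6, Psmd9 and Psmd12, against 14.0% of the 27025 genes with a window. Counted by window, it was in 4 of 27 (14.8%) against 12.4% of all 32851. The 250 bases before the start are shown for the 3 genes whose match begins within 50 bases of the start, with the match in capitals, Psmb5 at chr14:54617996-54618245 on the minus strand, Psmb6 at chr11:70525107-70525356 and Psmd9 at chr5:123227940-123228189 on the plus strand. The deposited files name no genome build, and the coordinates are those of the RefSeq windows.
Psmb5: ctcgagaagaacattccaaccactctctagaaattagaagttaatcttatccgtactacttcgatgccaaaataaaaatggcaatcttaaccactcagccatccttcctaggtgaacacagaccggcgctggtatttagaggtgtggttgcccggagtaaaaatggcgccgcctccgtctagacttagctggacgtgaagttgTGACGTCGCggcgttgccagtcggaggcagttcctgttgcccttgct
Psmb6: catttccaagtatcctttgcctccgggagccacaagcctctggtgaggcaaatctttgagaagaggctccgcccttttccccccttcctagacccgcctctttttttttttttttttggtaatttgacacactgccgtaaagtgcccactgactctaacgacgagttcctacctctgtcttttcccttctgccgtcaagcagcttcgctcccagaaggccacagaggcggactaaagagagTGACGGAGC
Psmd9: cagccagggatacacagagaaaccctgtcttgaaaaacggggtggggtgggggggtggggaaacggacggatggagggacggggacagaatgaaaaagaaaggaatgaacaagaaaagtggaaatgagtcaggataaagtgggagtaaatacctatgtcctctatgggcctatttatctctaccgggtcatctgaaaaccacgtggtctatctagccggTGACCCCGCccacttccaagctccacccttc
Counted back from the start, the match begins at base -47 in Psmb5, at -9 in Psmb6 and at -31 in Psmd9. A match describes letters only. The members' share was close to that of all genes.

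No proteasome feature differed between the diets at an adjusted p under 0.05. Called were 14 of 20214 tested features (0.0693%), 7 higher and 7 lower with CLA, and 0 of the 40 proteasome features, all of which were tested (limma with Benjamini-Hochberg adjustment, n = 4 arrays). The lowest adjusted p among the 40 was 0.117, for Psmb10. At an unadjusted limma p under 0.05, 9 members lay higher with CLA, beside 8.76% of all features, and 1 lay lower, beside 7.17%. With median centring 0 members lay higher and 3 lower at that p, beside 1668 and 2152 of all 20214 features, so neither share exceeded that of all features. As fitted across the arrays, 31 of 40 members had a log2 CLA over control above 0, beside 52.3% of all features, with a median of 0.059 against 0.0060 for all tested features. Centring each array on its median in place of a loess curve turned this, to 11 of 40 above 0 and a median of -0.08, against -0.0080 for all features. The members are bright, with a median log2 intensity of 9.23 against 7.16 over all tested features, and 11.1% of features were brighter than that median. With median centring the diet effect ran with brightness across all features (r = -0.58), and with loess it hardly did (r = 0.07), so the sign of the family's median depends on the normalization.

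**Figure D1:**
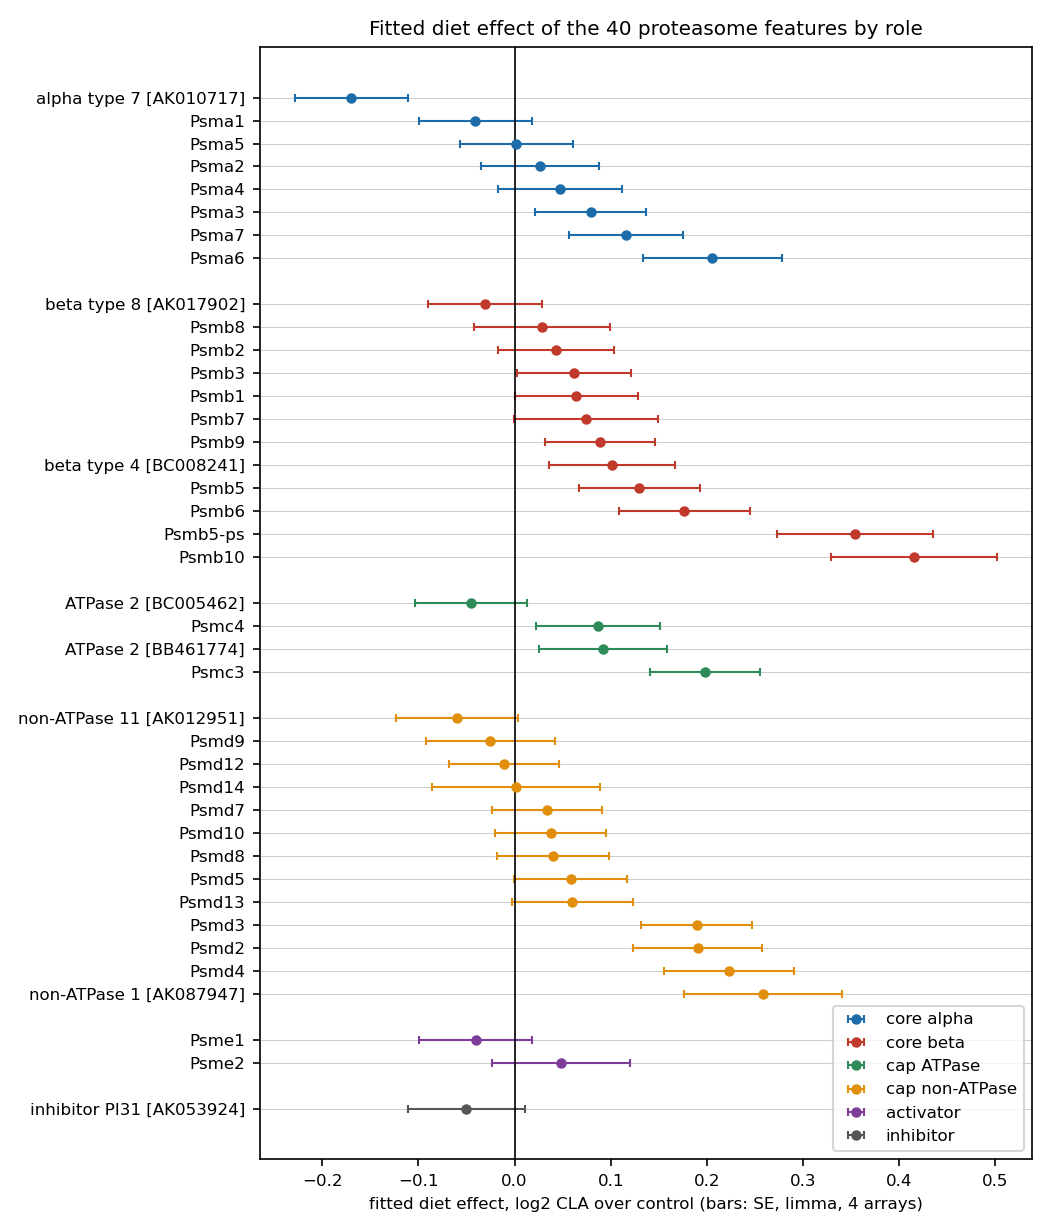
Fitted diet effect, as log2 CLA over control, of each of the 40 proteasome features, grouped and coloured by role. Points are limma estimates over 4 arrays and bars are standard errors. In this loess setting 31 points lie right of 0, and with median centring 11 did.

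On single arrays the family's ratios followed the dye orientation. The median of the 40 members, as log2 CLA over control with the dye effect left in, was -0.04 on array 1 and -0.09 on array 2, where CLA was in Cy5. It was 0.12 on array 3 and 0.15 on array 4, where CLA was in Cy3. The 2 orientations thus gave medians of opposite sign. Of the members, 20 lay below 0 on both arrays with CLA in Cy5 and above 0 on both with CLA in Cy3, beside 22.9% of all features. The opposite pattern held for 5 members, beside 19.7%. Only 4 members, Psma6, Psma7, Psmb3 and Psmb6, lay above 0 on all 4 arrays, beside 4.55%, and 1, the feature AK010717, lay below 0 on all 4, beside 4.66%. The remaining 10 were mixed. Across the 40 members the arrays of one orientation correlated at r = 0.85 and 0.91, and arrays of opposite orientation at -0.79 to -0.84, against 0.56 and 0.82, and -0.45 to -0.73, across all features. These correlations are across features, which are not independent replicates.

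**Figure D2:**
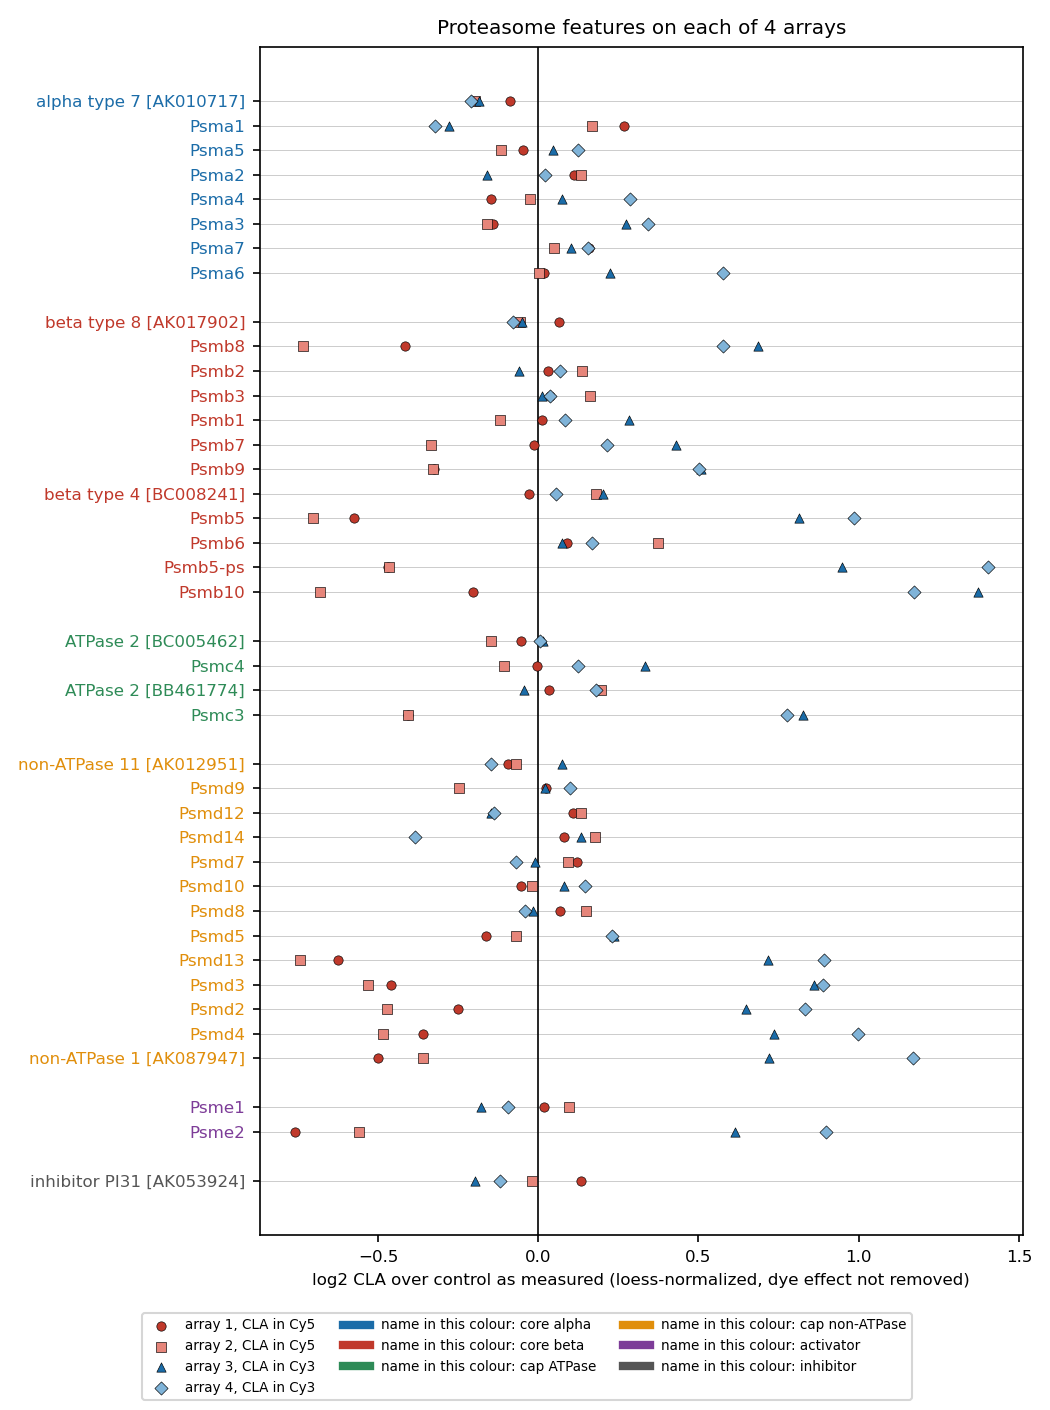
Measured log2 CLA over control on each of the 4 arrays for every proteasome feature, with the dye effect left in. Red symbols are arrays with CLA in Cy5 and blue symbols arrays with CLA in Cy3, and name colours give the role. For 20 features both red symbols lie left of 0 and both blue symbols right of it.

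Among the alpha subunits, which form the outer rings of the core, 6 of 8 features had a fitted diet effect above 0, with a median log2 of 0.04 and a range from -0.17 to 0.21. With median centring 0 of 8 lay above 0 and the median was -0.14, and without array 4 the median was -0.01. Psma6, an alpha ring subunit, measured 0.02 and 0.0029 on arrays 1 and 2 and 0.22 and 0.58 on arrays 3 and 4. It lay above 0 on every array, close to 0 where CLA was in Cy5, and its fitted effect was 0.21 ± 0.07 (SE, adjusted p = 0.24), and 0.12 without array 4. Psma7 measured 0.16, 0.05, 0.10 and 0.15, a narrow range that did not separate the orientations, with a fitted 0.12 ± 0.06 (adjusted p = 0.366). Under median centring Psma6 stood at -0.00082 and Psma7 at -0.08. The unnamed feature AK010717, described as alpha type 7, measured -0.09, -0.20, -0.18 and -0.21. All 4 arrays thus had less signal with CLA, and the fitted effect was -0.17 ± 0.06 (adjusted p = 0.238). The feature was dim, with a mean log2 intensity of 6.49 against 9.76 for Psma7, though well above background on all 4 arrays in both diets. It lay below 0 under all 17 alternative settings, from -0.41 to -0.03, though several of them could not change its fitted value. The other 5 alpha features, Psma1 to Psma5, ran from -0.04 for Psma1 to 0.08 for Psma3.

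The beta subunits held the highest members. Of 12 beta features 11 lay above 0, with a median log2 of 0.08, and 4 of 12 with median centring, with a median of -0.07. Psmb10, the inducible trypsin-like cutting subunit, measured -0.20 and -0.68 on arrays 1 and 2 and 1.37 and 1.17 on arrays 3 and 4. The orientations did not overlap and had opposite signs. Its fitted diet effect was 0.42 ± 0.09, a 1.33-fold higher level with CLA, and its dye effect, log2 Cy5 over Cy3, was -0.86. Psmb10 stayed above 0 in all 17 alternative settings, between 0.21 and 0.53, with adjusted p from 0.0934 to 0.978. Several of these settings, such as no dye term, could not change the fitted value of a member. Psmb5-ps, a pseudogene of Psmb5 that may bind transcripts of the gene itself, measured -0.47 and -0.47, then 0.95 and 1.40. Again both arrays with CLA in Cy5 lay below both with CLA in Cy3, and the fitted effect was 0.35 ± 0.08 (adjusted p = 0.142), against 0.15 with median centring and 0.16 with the dye effect at equal size.

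Psmb6, the standard caspase-like cutting subunit, had the higher fitted effect of the 2 beta members that lay above 0 on all arrays. It measured 0.09, 0.37, 0.07 and 0.17, and the fitted effect was 0.18 ± 0.07 (adjusted p = 0.274), with a dye effect of 0.05. Under the 17 alternative settings Psmb6 ran from 0.07 to 0.25. Psmb5, the standard chymotrypsin-like subunit, measured -0.58, -0.70, 0.81 and 0.99, with a fitted 0.13 ± 0.06, against -0.05 with median centring and -0.06 with the dye effect at equal size. Psmb7, the standard trypsin-like subunit, measured -0.01, -0.33, 0.43 and 0.21, with a fitted 0.07 ± 0.07, against -0.13 with median centring and -0.0064 without array 1. Psmb5 and Psmb7 changed sign between the orientations, and Psmb6 did not.

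The inducible subunits differed among themselves in fitted value. Psmb8, the inducible chymotrypsin-like subunit, measured -0.41, -0.73, 0.69 and 0.58, and its fitted effect was 0.03 ± 0.07 (adjusted p = 0.857). Psmb9, which takes the place of Psmb6, measured -0.33, -0.33, 0.51 and 0.50, with a fitted 0.09 ± 0.06 (adjusted p = 0.451). In both genes the sign followed the orientation, and for Psmb9 the ratios with CLA in Cy3 were the larger in size. With median centring Psmb8 stood at -0.14 and Psmb9 at -0.04, and with the dye effect at equal size at -0.12 and -0.01. Setting each inducible subunit against the standard one it replaces, the fitted difference was -0.10 for Psmb8 minus Psmb5 and -0.09 for Psmb9 minus Psmb6, and 0.34 for Psmb10 minus Psmb7. The last difference was -0.19 and -0.35 on arrays 1 and 2 and 0.94 and 0.96 on arrays 3 and 4, so it too changed sign with the dyes. These differences of log2 ratios carry no test. The structural beta features Psmb1, Psmb2, Psmb3 and beta type 4 (BC008241) lay between 0.04 and 0.10.

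Of the 4 ATPase features of the cap, 3 lay above 0, with a median log2 of 0.09, and 2 of 4 with median centring, with a median of -0.02. Psmc3, a subunit of the unfolding ring, measured -0.40 and -0.41 on arrays 1 and 2 and 0.83 and 0.77 on arrays 3 and 4. The arrays of one orientation nearly coincided, the orientations had opposite signs, and the fitted effect was 0.20 ± 0.06 (adjusted p = 0.187), against 0.04 with median centring and 0.05 with the dye effect at equal size. Psmc4, of the same ring, measured -0.0047, -0.11, 0.33 and 0.13, with a fitted 0.09 ± 0.06 (adjusted p = 0.507). ATPase 2 was represented by a pair of unnamed features. The first, BC005462, measured -0.05, -0.15, 0.02 and 0.0041, and the second, BB461774, measured 0.03, 0.20, -0.04 and 0.18. Their fitted effects were -0.05 ± 0.06 and 0.09 ± 0.07, of opposite sign and each close to its error.

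The other cap proteins fell into those with a strong dye effect and those without. Of 13 features 10 lay above 0, with a median log2 of 0.04 and a range from -0.06 to 0.26, and 5 of 13 with median centring, with a median of -0.06. Psmd4, a receptor for ubiquitin chains, measured -0.36 and -0.48, then 0.74 and 1.00, with a fitted 0.22 ± 0.07 (adjusted p = 0.198). Psmd3, a subunit of the lid, measured -0.46 and -0.53, then 0.86 and 0.89, with a fitted 0.19 ± 0.06 (adjusted p = 0.2). In both, the ratios with CLA in Cy3 were larger in size than those with CLA in Cy5. With median centring Psmd4 stood at 0.05 and Psmd3 at 0.0053, and with the dye effect at equal size at 0.07 and 0.03. The unnamed non-ATPase 1 feature (AK087947), described as a subunit of that name, measured -0.50, -0.36, 0.72 and 1.17, with a fitted 0.26 ± 0.08 (adjusted p = 0.213). Its fitted value was 0.37 without array 3, 0.15 without array 4 and 0.09 with the dye effect at equal size. Psmd2, a large scaffold of the cap base, measured -0.25, -0.47, 0.65 and 0.83 (fitted 0.19 ± 0.07). Psmd13, of the lid, measured -0.62, -0.74, 0.72 and 0.89, nearly symmetric about 0 (fitted 0.06 ± 0.06).

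The remaining 8 cap features lay within 0.06 of 0 as fitted. Psmd14, the deubiquitinase of the lid, measured 0.08, 0.18, 0.13 and -0.38, so that array 4 alone was low, with a fitted 0.0018 ± 0.09. Psmd5, Psmd9 and Psmd10, which assist assembly of the cap base, were at 0.06 ± 0.06, -0.03 ± 0.07 and 0.04 ± 0.06. Lid subunits Psmd7, Psmd8 and Psmd12 were at 0.03 ± 0.06, 0.04 ± 0.06 and -0.01 ± 0.06. The unnamed non-ATPase 11 (AK012951), the dimmest member, was well above background on 3 of 4 arrays in each diet and stood at -0.06 ± 0.06.

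The activator, a ring that interferon gamma induces and that opens the core without ubiquitin, had discordant partners. Psme1 measured 0.02, 0.10, -0.18 and -0.10, and Psme2 measured -0.76, -0.56, 0.61 and 0.90. The dye pattern of Psme1 was small and ran the other way from that of Psme2, and the fitted effects were -0.04 ± 0.06 and 0.05 ± 0.07. The inhibitor feature (AK053924), described as PI31, measured 0.13, -0.02, -0.20 and -0.12, with a fitted -0.05 ± 0.06.

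The members with the higher diet effects were in large part those with a strong dye effect. A dye effect of -0.4 or below, a bound chosen after the values were seen, held for 12 members. Their fitted diet effect was above 0 in 12 of 12, with a median of 0.19 and 7 at an unadjusted p under 0.05, and in 7 of 12 with median centring. The other 28 members had a median of 0.04 with 19 above 0. Over all features with so low a dye effect, 1248 of 1333 lay above 0 and 715 lay higher at that p, with a median of 0.18, so the 12 members were close to such features in general. Diet and dye effects had r = -0.70 across the members and -0.53 across all tested features, both from the same 4 arrays. The ratios were wider on arrays 3 and 4, with a standard deviation over all features of 0.37 and 0.40 against 0.25 and 0.28 on arrays 1 and 2. An array's slope on the mean dye profile was 0.78 and 0.73 on arrays 1 and 2 and 1.18 and 1.30 on arrays 3 and 4, and over the members alone 0.68, 0.83, 1.14 and 1.34. A larger dye effect, a diet effect that runs with it and a wider scale cannot be told apart in these slopes. With the dye effect scaled to equal size on all arrays, the median of the 12 was 0.04 with 7 above 0. The median of all 40 was then 0.02 with 27 above 0, and 1 member on each side had an unadjusted p under 0.05, beside 958 higher and 963 lower of all 20214 features, which is no more than the background. By its construction this scaling takes out the correlation of diet and dye effects over all features (r = 0.0023 after it), so the lower values of members chosen by a strong dye effect follow in part from the setting. Whether the dye accounts for the diet effects of these members was not tested.

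**Figure D3:**
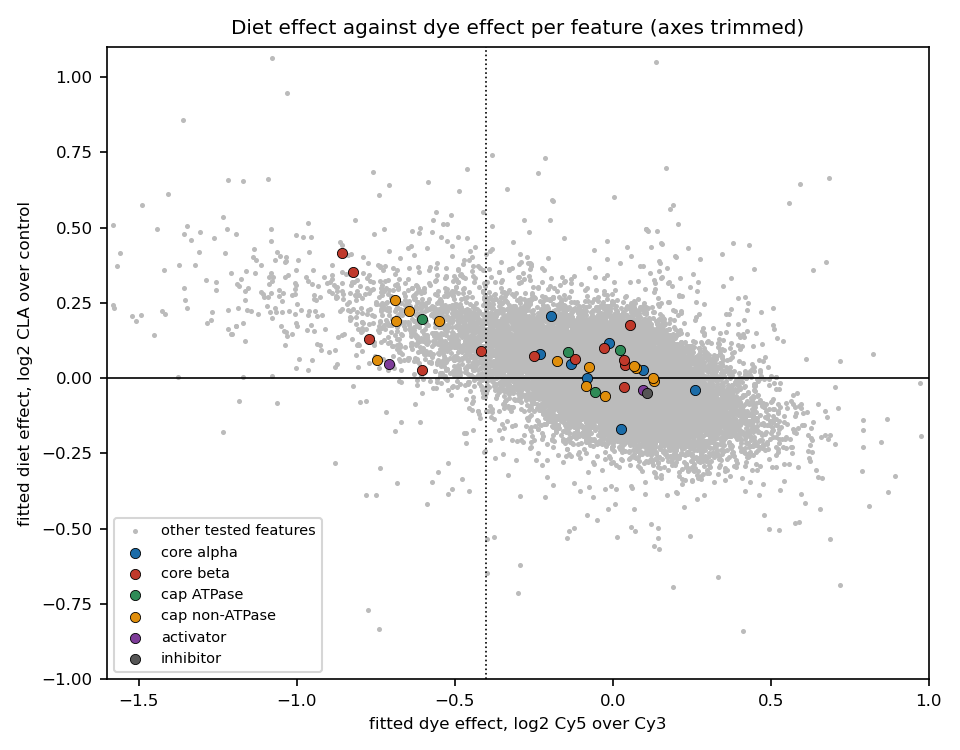
Fitted diet effect, log2 CLA over control, against fitted dye effect, log2 Cy5 over Cy3, for the 40 proteasome features in colour and the other tested features in grey. The dotted line marks a dye effect of -0.4, left of which all 12 members lie above 0 in this loess setting, and 7 of 12 with median centring.

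Features described as the same subunit did not all give the same value. The named Psmb8 feature and the unnamed beta type 8 feature (AK017902) differed in dye effect by -0.64 on the log2 scale, the unnamed one measuring 0.07, -0.06, -0.05 and -0.08. Their fitted diet effects of 0.03 and -0.03 differed by 0.06, about the error of either. Psma7 exceeded the alpha type 7 feature AK010717 by 0.25, 0.25, 0.29 and 0.36 on arrays 1 to 4, a difference of the same sign in both orientations. The authors' deposited table names AK010717 Psma8, so the 2 features may not stand for 1 gene. The unnamed feature was the dimmer in both pairs, with a mean log2 intensity of 6.67 against 8.86 for Psmb8 and 6.49 against 9.76 for Psma7. Psmb5 lay below its pseudogene feature by 0.11 to 0.42 on every array, with a fitted difference of -0.22. As a group the 8 unnamed features had a median of -0.04 with 3 above 0, and the 32 named ones 0.06 with 28 above 0. These counts hold for the loess setting, since with median centring only 11 of all 40 members lay above 0. The files hold no probe sequences, so the transcripts that each unnamed feature binds were not checked.

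Named proteasome genes outside the rule were as mixed. Psmc5, a cap ATPase, measured -0.69, -0.53, 1.11 and 1.27, with a fitted 0.29 (adjusted p = 0.131; 0.07 with the dye effect at equal size) and a dye effect of -0.90. Psmc6, from the same ring, measured 0.06, 0.15, -0.48 and -0.63, with a fitted -0.23 (adjusted p = 0.173) and a dye effect of 0.33. The sign of each diet effect was thus opposite to that of its dye effect. Psmc1 stood at 1.03-fold, Psme3 at 1.13-fold, and the assembly factors Pomp, Psmg1 and Psmg2 at 1.02-fold, 0.938-fold and 0.945-fold, CLA over control.

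The genes around the proteasome were counted in lists of the pathway, and no listed gene was called in the main setting. With median centring 1 gene of the ubiquitin, E1 and E2 list and 1 of the antigen processing and interferon list were called, beside 149 of all 20214 features. Of 29 tested ubiquitin, activating (E1) and conjugating (E2) genes, 11 lay above 0 and 18 below, with a median log2 of -0.06 (5 above 0 and -0.15 with median centring). Ubb, a polyubiquitin gene, measured -0.94, -0.81, 1.63 and 1.96, with a fitted 0.46 ± 0.07 (adjusted p = 0.066) and a dye effect of -1.34. Its arrays had opposite signs in the 2 orientations. Ubb passed the threshold when array 3 was left out (0.54, adjusted p = 0.0436), and stood at 0.14 with the dye effect at equal size.

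Ubiquitin ligases (E3) were above 0 in 20 of 29, with a median of 0.05, and in 11 of 29 with median centring, with a median of -0.05. Nedd4, a ligase of membrane proteins, measured -0.20, 0.16, 1.00 and 0.92, with a fitted 0.47 ± 0.07 (adjusted p = 0.066), and Cul2, a scaffold of ligase complexes, was at -0.28 ± 0.08 (adjusted p = 0.177). Of 19 deubiquitinases 12 lay above 0, with a median of 0.05, and 6 with median centring, with a median of -0.07. Usp5, which takes apart free ubiquitin chains, measured -0.56, -0.52, 1.21 and 1.14 (fitted 0.31 ± 0.06, adjusted p = 0.0864, and 0.11 with the dye effect at equal size), and Usp14, which works on the proteasome cap, was at 0.19 ± 0.06 (adjusted p = 0.222). Shuttle factors and partners of the p97 segregase were above 0 in 8 of 10, with a median of 0.07, and in 2 of 10 with median centring, with a median of -0.05. The lowest p-values there were those of Ubqln1 (0.16 ± 0.06) and Rad23b (0.16 ± 0.06), both carriers of ubiquitin-tagged proteins.

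Transcription and stress factors linked to proteasome genes were above 0 in 13 of 21, with a median of 0.02, and in 12 of 21 with median centring, with a median of 0.01. Nfe2l1 measured -0.23, 0.08, 0.17 and 0.30 (fitted 0.08 ± 0.07, adjusted p = 0.584), and Nfe2l2 stood at 0.0038 ± 0.08. Gclm, a glutathione synthesis gene that Nfe2l2 drives, measured -0.09, -0.02, 0.47 and 0.57 (0.23 ± 0.06, adjusted p = 0.158, and 0.00092 with median centring), and Mafg, a partner of both factors, was at 0.19 ± 0.06. The stress genes Nqo1, Txnrd1 and Hmox1 of the same list stood at 0.07 ± 0.07, -0.03 ± 0.06 and -0.09 ± 0.11, and Keap1 and Ddit3 at 0.17 ± 0.07 and 0.20 ± 0.08. At an unadjusted limma p under 0.05, 4 of the 21 lay higher and 0 lower, beside 8.76% and 7.17% of all features. With median centring 2 lay higher and 1 lower at that p. The antigen processing and interferon list, partners of the immunoproteasome, had 11 of 24 above 0 and a median of -0.03, and 3 of 24 with median centring, with a median of -0.16. Ifit1 and Ifi47, both interferon-induced, were at -0.29 ± 0.07 (adjusted p = 0.157) and -0.25 ± 0.06 (adjusted p = 0.165).

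The lists of related complexes and of other proteolysis had medians near 0, and all 3 had medians below 0 with median centring, from -0.11 to -0.08. Relatives of the cap lid in the COP9 signalosome and the translation factor eIF3 were above 0 in 9 of 14, with a median of 0.02. Autophagy and lysosomal genes were above 0 in 15 of 21 (median 0.02), and Gabarapl1, which coats autophagosomes, measured -0.62, -0.98, 1.26 and 1.78. Its fitted value was 0.36, with a dye effect of -1.16, and it was 0.23 without array 4 and 0.08 with the dye effect at equal size. Other cytosolic and mitochondrial proteases were above 0 in 7 of 16, with a median of -0.0077. Leukocytes carry much of the immunoproteasome in tissues, and 20 of 23 listed leukocyte markers were tested, 10 above 0 and 10 below, with a median of -0.0011. The summed intensity of these markers was 5358 to 7428 with CLA and 4207 to 7806 in control over the arrays, so the ranges overlapped. These ranges are not paired by array and mix the 2 dyes, so they do not decide whether leukocyte content differed. Of 10 tested stellate, endothelial and bile duct markers 7 lay above 0 (median 0.04), and of 2 erythroid ones 0. The part of these cells in the beta subunit values was not tested.

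In the authors' deposited table of significant features, 2 of the 40 members appear (5% of members against 3.71% of all features). That table gives Psmb8 a ratio of 1.60 with a p-value of 4.25e-06, and AK010717, which it names Psma8, a ratio of 0.708 with a p-value of 2e-05. Its ratios are read as CLA over control, since over the features that it shares with the tested ones its log2 ratio had r = 0.83 with the fitted diet effect, and -0.64 with the dye effect. Against the measured CLA over control on arrays 1 to 4, r was -0.31, 0.45, 0.82 and 0.81. The table thus ran closest to the arrays with CLA in Cy3. In the authors' deposited series matrix, as log2, Psmb8 stood at -0.46, -0.82, 0.74 and 0.61, and AK010717 at -0.18, -0.46, -0.46 and -0.56. The orientations gave opposite signs for Psmb8 and the same sign for AK010717. The table's log2 ratio of 0.68 for Psmb8 lies between its values on arrays 3 and 4, and the diet effect fitted here was 0.03. For AK010717 the table's log2 ratio was -0.50, also between arrays 3 and 4. Its fitted effect was -0.17 after the background correction and loess used here, which the matrix values did not pass through. Over the alternative settings the lowest fitted value of AK010717 was -0.41. The sources used here do not give the test behind its p-values.

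The direction of single members depended on the processing for most of them. Over the main setting and its 17 alternatives, 9 members lay above 0 throughout, namely Psmb10, Psmb5-ps, Psmb6, Psmc3, Psmd2, Psmd3, Psmd4, ATPase 2 (BB461774) and non-ATPase 1. Below 0 throughout were 4, namely AK010717, Psme1, ATPase 2 (BC005462) and the PI31 inhibitor. The other 27 took both signs. The same counts were not made over all features, so these do not set the members apart from other features. The alternatives are not independent checks. The members' median stayed at 0.059 with no dye term, array weights, no filter on dim features, outlier spots kept or 1 feature per gene symbol. The series matrix matched the scanner's processed signals within 0.001 log2 at 100% of spot values. No member was called in any of these settings.

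**Figure D4:**
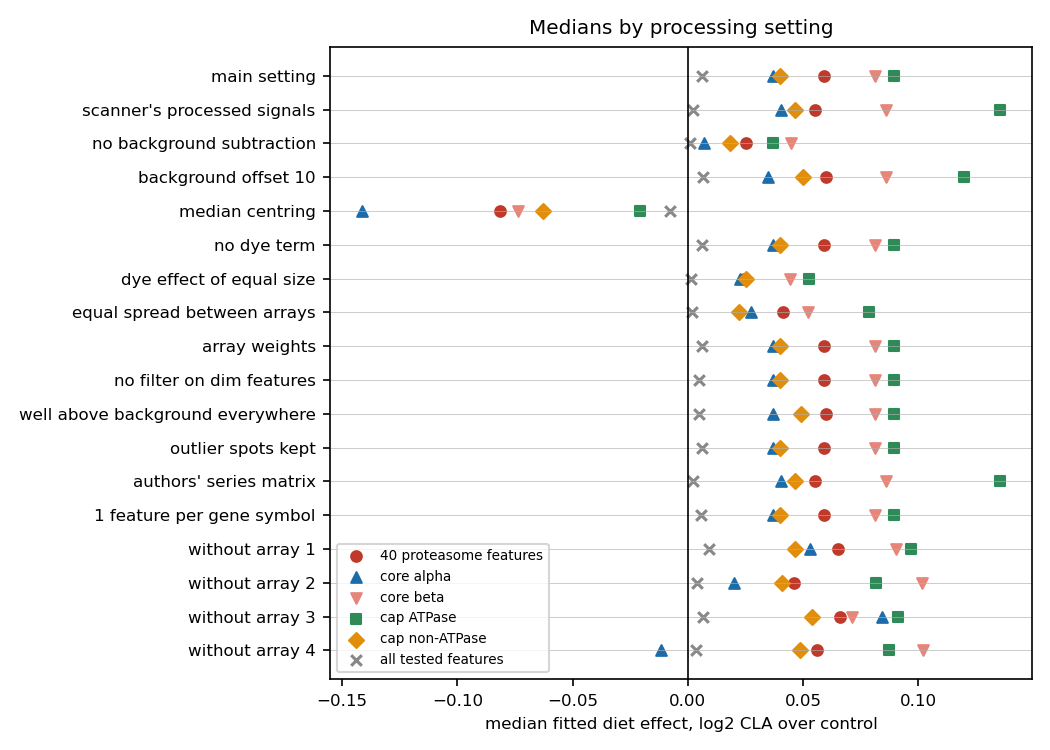
Median fitted diet effect, log2 CLA over control, of the 40 proteasome features, of 4 role classes and of all tested features in each processing setting. The family's median is 0.059 in the main setting, 0.02 with the dye effect at equal size and -0.08 with median centring.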

How the data were processed

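Liver RNA from both diets was compared on 4 two-colour Agilent arrays. Per the file headers, the deposited scanner intensities came from Agilent Feature Extraction A.6.1.1, with a mean foreground and median local background intensity for each of 22393 spots and channels. The authors' deposited series matrix holds log10 ratios, turned to CLA over control (slopes on the scanner's ratio of 1.00, 1.00, -1.00 and -1.00, column medians of 0.0010, -0.0023, -0.0020 and -0.0011). The authors' deposited table lists a p-value, a ratio and a score, which is that ratio as a signed fold. The sources used here do not give how the matrix and table were made.

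Intensities were corrected by normexp (offset 50) and loess, with control spots (1075) at weight 0 and then removed, outlier-flagged spots set missing and spots of a probe averaged, in limma 3.58.1 under R 4.3.3. A feature was tested if well above background in either diet on at least 2 arrays and measured on at least 3. All 40 members were measured on 4 arrays, 39 were well above background throughout, and 0 were saturated. The limma fit had an intercept for the dye and the diet coded by dye orientation, with Benjamini-Hochberg adjustment over 20214 features and a threshold of 0.05. The number of arrays limits the precision. The fit was tested on simulated data whose diet effects were larger than that of any member. That test does not bear on effects of the members' size.

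Members and lists were chosen with earlier results of these data known. Values per array are given for up to 3 members of each role with the lowest p, for Psmc5 and Psmc6, for members in the authors' table and for features that share a subunit, and for list genes up to 2 with the lowest p. Other members and genes shown were picked after their values were seen. Some listed genes that this rule picks are not reported here.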

Additional observations from a re-analysis of the deposited data

Results flagged for a closer look

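The 2 dye orientations gave ratios of opposite sign for many proteasome features. Of the 40 members, 20 lay below 0 on both arrays with CLA in Cy5 and above 0 on both with CLA in Cy3, beside 22.9% of all features. These are log2 CLA over control with the dye effect left in. The other way lay 5 members, beside 19.7% of all features, so the pattern is not particular to the proteasome. The difference between orientations was read from the signs of 2 arrays each and was not tested.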

How the results depend on the processing

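The number of features called for the diet, 14 in the main setting, was 0 with the scanner's processed signals, with no background subtraction, with an offset of 10, with no dye term, with the dye effect at equal size, with arrays scaled to equal spread and with the authors' series matrix. It was 149 with median centring, 52 with features well above background everywhere, 1 with outlier spots kept, and 2 to 71 when an array was left out (40, 2, 62 and 71 without arrays 1 to 4). The cause was not tested. The count of members called was 0 throughout. The members' median of 0.059 moved to 0.025 without background subtraction, -0.082 with median centring, 0.024 with the dye effect at equal size and 0.041 with equal spread, and lay between 0.046 and 0.066 when an array was left out. Of 697 comparisons of single named genes with the 17 alternatives, 625 kept their value within the spread and side of the threshold, 70 moved, 2 passed the threshold and 0 reversed a called sign. Among them 21, from 9 members, had the opposite sign of an uncalled value, most often Psme2 (5), Psmb8 (4) and Psmb5 (3). The 697 include settings that could hardly change a fitted value, such as no dye term, array weights and the filters, which raises the count of 625. A block for slide or extraction day was not run, because each slide holds 1 array and the only other day holds array 2 alone, so that such a block equals leaving array 2 out. Each array pairs 1 CLA pool with 1 control pool, and the fit used the ratio within each array. No further pairing across the dye orientations was possible, because the array numbers are not shared between them.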
